A study of Homo sapiens with 18 samples.

Results

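The subject is the transcriptome of parental H2052 (NCI-H2052) cells after VT107, taken from 6 of the 18 samples of the study. The cells are an established human pleural mesothelioma line that, per the study, carries mutations in the Hippo pathway genes NF2 and LATS2. They were treated for 24 h with 1 µM VT107, a small molecule that blocks the auto-palmitoylation of all TEAD proteins (3 libraries), or with the equivalent volume of DMSO, the vehicle (3 libraries). Both groups are the same unedited line in the same medium, and polyA RNA was sequenced. The members are all genes of the count table in these libraries. Another 6 libraries, of an NF1 mutant derivative of the same line under the same treatments, were used at the end to compare responses. The libraries are described as biological replicates, with no word on whether equal numbers share a culture. One line at 1 dose and 1 time is the whole model, so the values hold for these cultures.

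TEADs are transcription factors that bind DNA, and YAP and TAZ are their coactivators. The kinases of the Hippo pathway phosphorylate YAP and TAZ and keep them out of the nucleus. NF2 and LATS2 are both brakes on YAP and TAZ, and many pleural mesotheliomas have lost one of them. TEADs carry a palmitate on a conserved cysteine in a central pocket, and VT107 occupies that pocket. Classical genes driven by YAP/TAZ-TEAD encode secreted matricellular proteins such as CTGF and CYR61, cytoskeletal and adhesion proteins, and regulators that feed back on the pathway, such as AMOTL2.

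The VT107 libraries held 12424914 to 13346712 gene counts and the DMSO libraries 10950284 to 13418485. Values below are CPM, the gene's count scaled to the library's depth, on TMM-scaled library sizes, given in the order of the replicate numbers 1, 2 and 3. The number 3 libraries of both groups stood apart from the others: 900 of the 12891 genes tested were at least 2-fold higher and 1010 at least 2-fold lower in number 3 than in numbers 1 and 2. The 10 most abundant genes took 11.9% of the counts in VT107 replicate 2, against 7.98% to 8.79% in the other 5 libraries, and the ribosomal protein gene RPS29 was at 8520 CPM there, against 2319 to 3383 CPM. Of the mutant Hippo genes, LATS2 had 1, 0 and 0 counts in VT107 and 1, 0 and 0 in DMSO, and NF2 had 45, 40 and 49 counts in VT107 and 58, 70 and 70 in DMSO. The mesothelial markers WT1 (37.6, 44 and 28.1 CPM in VT107, 40, 42.6 and 35.5 CPM in DMSO) and MSLN (21.9, 20.4 and 23.8 and 22.1, 23.6 and 20.6 CPM) were present in every library, while CALB2 and UPK3B were low and KRT5, MUC16 and ITLN1 were at 0 in all 6. Summed over their lists, 15 leukocyte markers gave 6.78, 5.73 and 19.1 CPM in VT107 and 5.11, 3.65 and 10.5 CPM in DMSO, most of it from CD68, with 6 of the 15 at 0 in all 6 libraries, CD3E, CD4, MS4A1, FCGR3A and TYROBP among them. The 6 endothelial markers summed to 4.46 to 10.7 CPM in VT107 and 5.74 to 8.45 CPM in DMSO, and the 8 adenocarcinoma type epithelial markers to 0.928 to 2.63 CPM and 1.15 to 2.04 CPM.

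In VT107, 8 of 21 canonical YAP/TAZ-TEAD targets were lower, and single genes of adhesion, matrix, cytokine and lipid pathways were higher. Of the 12891 genes with at least 0.5 CPM in all 6 libraries, 215 (1.67%) passed an adjusted p of 0.05 with the replicate number as a block, 109 higher (0.846%) and 106 lower (0.822%) in VT107. Of the higher genes 30 were up at least 2-fold and 96 at least 1.5-fold. Of the lower genes 28 were down at least 2-fold and 89 at least 1.5-fold. The median log2 fold change was 0.85 over the higher and -0.76 over the lower genes, against 0.0035 over all genes tested. Every one of the 215 changed in the same direction at all 3 replicate numbers. A fit with the block favours such genes, so this is no separate support for the calls. For 107 of them the values in VT107 and DMSO did not overlap, which held for 10.5% of all genes tested.

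Without the block edgeR called 0 genes (474 at an unadjusted p under 0.05, against 2280 with the block), so that no gene list below has a call in that fit. DESeq2 without the block called 32, of which 30 are among the 215, and voomWithQualityWeights 18, all of them among the 215, and 116 of the 215 kept an unadjusted p under 0.05 in edgeR. With both number 3 libraries left out the block fit called 27 genes, 26 of them among the 215, the fit without the block 44, 43 of them among the 215, and the median log2 fold change of the 215 was then 0.78 for the higher and -0.67 for the lower genes. Leaving out 1 library with the block in place gave 63, 1135 and 126 calls without VT107 replicates 1, 2 and 3, and 61, 802 and 137 without DMSO replicates 1, 2 and 3. Of the 215, 49 passed in all 6 of those fits. With the block in place, the partner of a library left out adds almost nothing to the treatment effect. The 6 fits are therefore not 6 separate checks. In none of these fits did any of the 215 change direction, but the fits reuse the libraries in which the 215 were chosen. Below, "called", "rose" and "fell" refer to the edgeR fit with the block unless another tool is named, and a number printed just before an adjusted p is a log2 fold change, VT107 over DMSO, with its standard error (SE) where given. Counts and shares of calls in a gene list stand against the 1.67% of all genes called. The lists were drawn up with earlier results of these data known, so a share above 1.67% is a description and not a test. Counts of members above or below 0 stand against 49.5% of all genes tested below 0. Counts at an unadjusted p under 0.05 stand against 2280 of 12891. Of 80 called genes named by the rule given at the end, 20 passed without number 3 in the block fit.

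**Figure D1:**
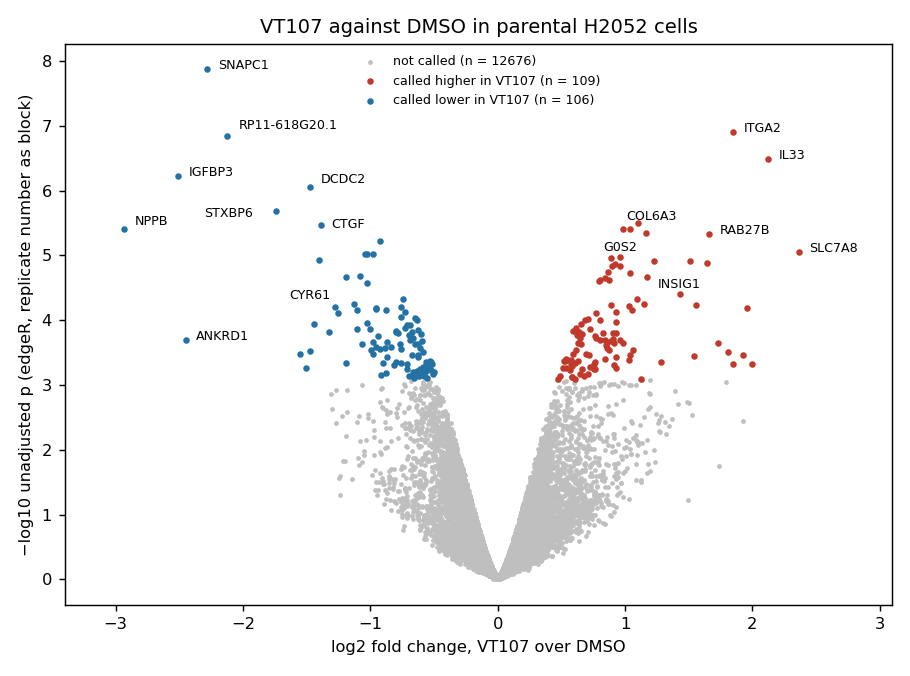
Log2 fold change (VT107 over DMSO) against -log10 of the unadjusted p for each of the 12891 genes tested in parental H2052 cells, from the edgeR fit with the replicate number as a block. The 109 genes called higher (red) and 106 called lower (blue) are marked, with SNAPC1 the highest point among the lower (log2 fold change -2.28) and ITGA2 among the higher (1.85).

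Among the lower genes, the largest falls were of secreted peptides and nuclear regulators known as targets of YAP/TAZ-TEAD. NPPB encodes the natriuretic peptide B of heart and stretched tissue (ENSG00000120937, chromosome 1 from 11917521 to 11918988, minus strand of hg19). It was at 23.4, 23.1 and 4.13 CPM in VT107, against 120.4, 129 and 87.9 CPM in DMSO. All 3 VT107 libraries were below all 3 DMSO libraries, and VT107 replicate 3 was far below the other VT107 libraries. The log2 fold change was -2.94 ± 0.31 SE, adjusted p = 0.00423, and -2.40 (adjusted p = 0.00123) without the number 3 libraries.

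IGFBP3 binds insulin-like growth factors outside the cell (ENSG00000146674, chromosome 7 from 45951850 to 45961473, minus strand). Its level was 24.6, 23.7 and 15.5 CPM in VT107, against 109, 103 and 153 CPM in DMSO, with no overlap. IGFBP3 fell 5.69-fold, a log2 fold change of -2.51 ± 0.21 SE, adjusted p = 0.0015. Of the other 11 tested genes of the IGF list none was called. IGFBP4 averaged 531 ± 114 CPM in VT107 and 563 ± 94.8 CPM in DMSO (SD, n = 3 each), and IGFBP7 274 ± 53.7 CPM in VT107 and 273 ± 47.8 CPM in DMSO. IGFBP1, with a log2 fold change of -1.05, was near the detection limit at 0.643, 1.27 and 0.975 CPM in VT107 and 1.44, 2.22 and 2.32 CPM in DMSO (adjusted p = 0.156).

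ANKRD1 encodes an ankyrin repeat protein of the nucleus and sarcomere that is induced by stretch (ENSG00000148677, chromosome 10 from 92671853 to 92681033, minus strand). It was at 33.8, 52 and 8.1 CPM in VT107, against 146, 133 and 156 CPM in DMSO. The groups did not overlap, and again VT107 replicate 3 was the lowest, so that the log2 ratios at the 3 replicate numbers were -2.10, -1.35 and -4.24. The fitted log2 fold change was -2.45 ± 0.42 SE, adjusted p = 0.026, and -1.71 (adjusted p = 0.0255) without number 3.

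SNAPC1 encodes a subunit of the complex that starts transcription of small nuclear RNA genes (ENSG00000023608, chromosome 14 from 62229075 to 62263146, plus strand), and had the smallest p of all genes. Its level was 71.3, 87.3 and 43.2 CPM in VT107, against 422, 368 and 198 CPM in DMSO. Within each replicate number the ratio was alike, at -2.56, -2.08 and -2.19 on the log2 scale, although number 3 had less SNAPC1 RNA in both groups. The log2 fold change was -2.28 ± 0.13 SE, adjusted p = 0.000173. An annotated transcript on the same strand that overlaps SNAPC1 and HIF1A, RP11-618G20.1, fell with it (-2.12, adjusted p = 0.000618), and counts of the overlapping features cannot be told apart. The other 7 tested members of the small nuclear RNA list were not called: SNAPC2 averaged 42 ± 7.91 CPM in VT107 and 37.1 ± 6.47 CPM in DMSO, SNAPC3 23.8 ± 7.17 CPM in VT107 and 22.9 ± 3.31 CPM in DMSO, and SNAPC4, with the smallest p of these, had a log2 fold change of -0.35, adjusted p = 0.299.

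CTGF and CYR61 encode the secreted matricellular proteins CCN2 and CCN1, which bind integrins and growth factors. CTGF (ENSG00000118523, chromosome 6 from 132269316 to 132272513, minus strand) was at 30.8, 27.7 and 28.1 CPM in VT107, against 63.3, 70 and 97.1 CPM in DMSO, a log2 fold change of -1.39 ± 0.14 SE, adjusted p = 0.00423. CYR61 (ENSG00000142871, chromosome 1 from 86046444 to 86049645, plus strand) was at 243, 232 and 159.8 CPM in VT107, against 414, 459 and 497 CPM in DMSO, and changed by -1.13 ± 0.16 SE, adjusted p = 0.0167. In both genes the groups did not overlap, and the fall was largest at number 3, where the DMSO library was the highest and, for CYR61, the VT107 library the lowest. Without number 3 the log2 fold change was -1.17 for CTGF (adjusted p = 0.0255) and -0.86 for CYR61 (adjusted p = 0.0868), so that CYR61 did not pass there. CTGF is overlapped on the opposite strand by RP11-69I8.3. THBS1, the matricellular protein thrombospondin 1, was at 47, 45.1 and 35.8 CPM in VT107, against 80.8, 92.8 and 89 CPM in DMSO. It fell by 1.04 on the log2 scale (standard error 0.122, adjusted p = 0.00646), with no overlap between groups. THBS2, thrombospondin 2, went the other way, at 137, 135 and 472 CPM in VT107, against 93.1, 91.5 and 268 CPM in DMSO (log2 fold change 0.65, adjusted p = 0.0255), and so did SPON2 or spondin 2 (0.96, adjusted p = 0.00678). Of that list of 12 tested matricellular genes 41.7% were called, against 1.67% of all genes. The other 7 tested members, SPARC among them (215 ± 64.7 CPM in VT107 and 222 ± 91 CPM in DMSO), were not called.

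The promoters of the targets that fell show the sequence context, since TEADs bind a short motif that reads GGAATG on one strand and CATTCC on the other. The windows run from 250 bases before to 50 bases after the start site in the RefSeq annotation of GRCh38.p14, on the strand of the gene, and matches to the motif on either strand are in capitals. CTGF has 3 matches, starting 169, 104 and 95 bases before the start site. ANKRD1 has 2, at 220 and 128 bases before it. THBS1 has 1 at 46 and TGFB2 1 at 185 bases before it. Windows were looked up one by one for the largest changes and for some genes picked by hand. Of those, the 4 printed hold the motif and belong to genes whose RNA fell. They are part of 19 matched genes that fell and hold the motif. CTGF lies at chr6:131951323-131951622 (minus strand), ANKRD1 at chr10:90921038-90921337 (minus), THBS1 at chr15:39580829-39581128 (plus) and TGFB2 at chr1:218345086-218345385 (plus).
CTGF: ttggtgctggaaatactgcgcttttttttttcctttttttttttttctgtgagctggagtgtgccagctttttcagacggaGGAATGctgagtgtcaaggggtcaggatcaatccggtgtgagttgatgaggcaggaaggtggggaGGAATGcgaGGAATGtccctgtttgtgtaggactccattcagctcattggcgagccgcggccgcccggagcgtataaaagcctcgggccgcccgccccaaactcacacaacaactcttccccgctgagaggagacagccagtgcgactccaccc
ANKRD1: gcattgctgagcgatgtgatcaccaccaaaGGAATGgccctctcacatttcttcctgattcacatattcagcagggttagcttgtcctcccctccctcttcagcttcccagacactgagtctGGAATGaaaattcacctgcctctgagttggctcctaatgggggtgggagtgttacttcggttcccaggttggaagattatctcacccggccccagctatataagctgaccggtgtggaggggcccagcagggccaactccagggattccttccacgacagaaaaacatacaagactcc
THBS1: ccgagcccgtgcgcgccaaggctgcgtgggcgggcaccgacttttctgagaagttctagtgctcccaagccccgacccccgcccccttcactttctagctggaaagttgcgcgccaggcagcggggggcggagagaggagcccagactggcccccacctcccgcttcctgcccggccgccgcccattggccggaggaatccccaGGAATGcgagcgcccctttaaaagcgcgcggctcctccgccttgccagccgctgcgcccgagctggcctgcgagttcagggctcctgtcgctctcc
TGFB2: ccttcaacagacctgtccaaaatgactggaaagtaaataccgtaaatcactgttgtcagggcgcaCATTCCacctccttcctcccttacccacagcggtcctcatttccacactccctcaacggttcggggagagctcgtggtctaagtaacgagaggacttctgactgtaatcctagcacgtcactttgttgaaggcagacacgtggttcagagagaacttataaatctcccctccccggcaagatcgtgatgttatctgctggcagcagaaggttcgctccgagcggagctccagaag
Of the windows that matched a gene, the motif was in 19 of 73 (26%) of the genes that fell and in 9 of 87 (10.3%) of those that rose. It was in 1071 of 9941 (10.8%) of the tested genes and in 3836 of 27305 (14%) of all promoters. Among the matched YAP/TAZ-TEAD targets it was in 6 of 15 (40.0%). These shares are a description of letters in a window of 300 bases. The windows of IGFBP3, SNAPC1, STXBP6, DCDC2, F3 and AMOTL2 hold no match. NPPB and CYR61 had no matched entry.

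Of 21 tested genes of the YAP/TAZ-TEAD target list, 8 fell and none rose (38.1%, against 1.67% of all genes), with a list median of -0.65 on the log2 scale against 0.0035 over all genes. Besides ANKRD1, IGFBP3, CTGF and CYR61, the others were AMOTL2, F3, CRIM1 and TGFB2. F3, tissue factor, the trigger of blood clotting, was at 21.9, 23.4 and 8.4 CPM in VT107, against 42.7, 45.3 and 38.6 CPM in DMSO, with no overlap, and fell by 1.33 on the log2 scale (standard error 0.219, adjusted p = 0.0238). The ratio was largest at number 3, where its log2 was -2.18, against -0.961 and -0.949 at numbers 1 and 2. TGFB2, a secreted transforming growth factor, was at 29.4, 31.5 and 36.2 CPM in VT107, against 56, 52.8 and 54.9 CPM in DMSO, a log2 fold change of -0.76 ± 0.11 SE, adjusted p = 0.0167 with groups apart. CRIM1, a transmembrane protein that binds growth factors, changed by -0.76, adjusted p = 0.0368 with overlapping groups.

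The remaining 13 targets were not called in edgeR, while DESeq2 and voomWithQualityWeights with the block each called 9 of the 21 lower. The matrix gene CCDC80 had a log2 fold change of -0.79, adjusted p = 0.0781, the secreted protein FJX1 of -0.80, adjusted p = 0.0861, the stress gene GADD45A of -0.53, adjusted p = 0.128 and the kinase NUAK2 of -0.65, adjusted p = 0.189. Of the others, the receptor tyrosine kinase AXL averaged 251 ± 54.8 CPM in VT107 and 286 ± 100.3 CPM in DMSO, the guanine nucleotide exchange factor ARHGEF17 76.1 ± 13.4 CPM in VT107 and 91.4 ± 18.5 CPM in DMSO, and the ecto-nucleotidase NT5E, the only member above 0 on the log2 scale, 52.5 ± 6.68 CPM in VT107 and 45.2 ± 6.23 CPM in DMSO. With number 3 left out the list median was -0.29 and 4 members fell, and without VT107 replicate 2 it was -0.69 and 11 fell. The median log2 ratio of the list was -0.35, -0.45 and -1.09 at replicate numbers 1, 2 and 3.

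**Figure D2:**
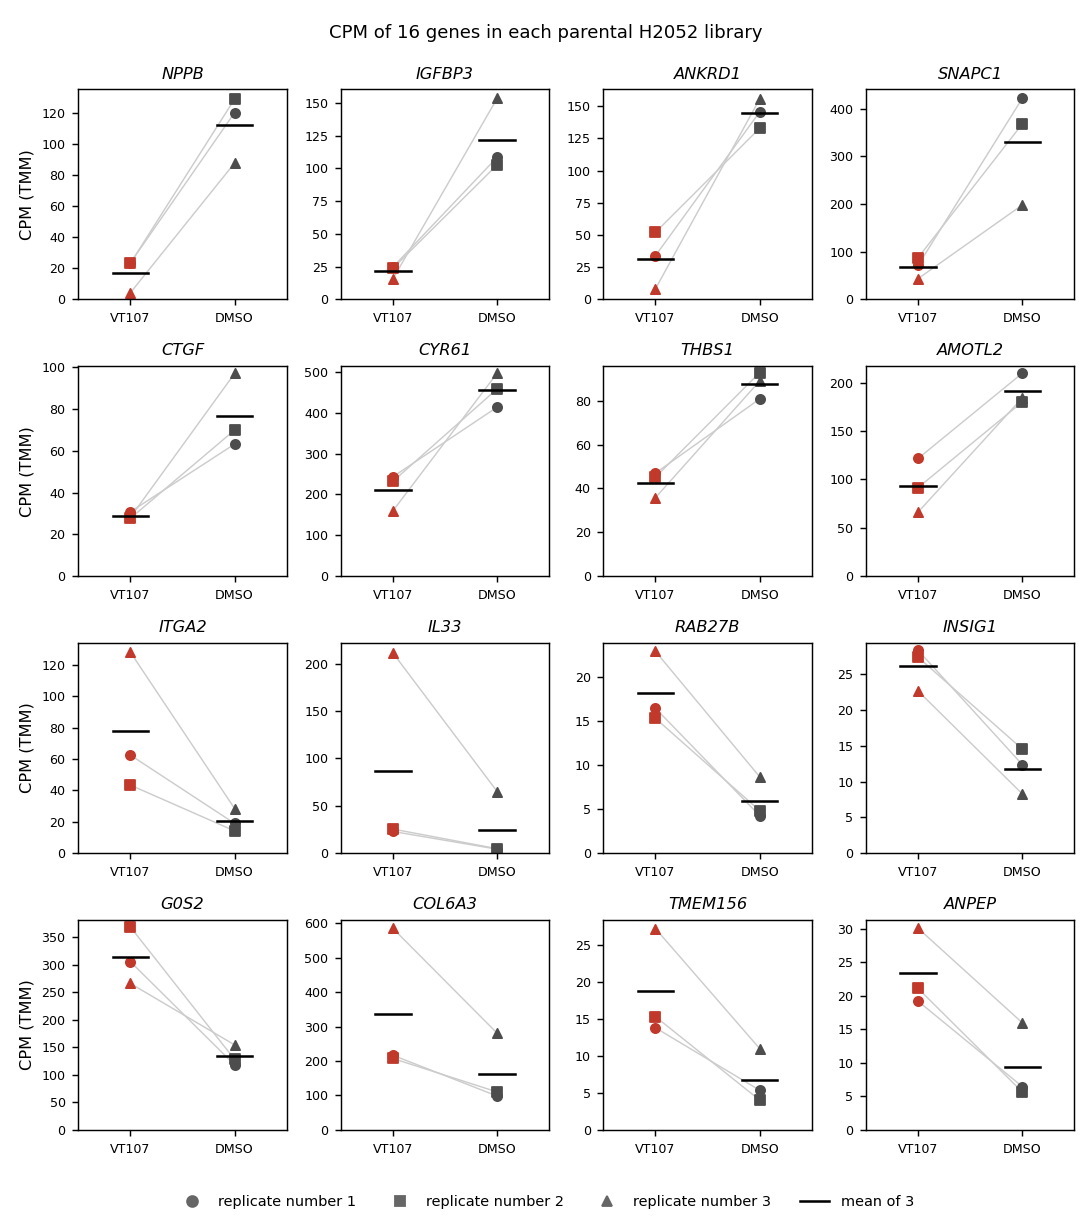
CPM of 16 genes in each library of parental H2052 cells, VT107 at the left of each panel and DMSO at the right, with lines joining libraries of one replicate number and a bar at each mean of 3. NPPB, IGFBP3, ANKRD1 and CTGF are lower in every VT107 library than in every DMSO library, and ITGA2, RAB27B, INSIG1, G0S2, TMEM156 and ANPEP are higher, while number 3 gives IL33 and COL6A3 high values in both groups.

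Some of the pathway's own parts were called. Of 8 tested TEAD, YAP, TAZ and VGLL genes, TEAD1 and TEAD4 fell and none rose (25%, against 1.67% of all genes). TEAD1 was at 149.8, 119.9 and 71.3 CPM in VT107, against 208, 194 and 97.8 CPM in DMSO, where each VT107 library was below the DMSO library of the same number but the groups overlapped, and changed by -0.54 ± 0.11 SE, adjusted p = 0.038. TEAD4 was at 30.5, 29.6 and 20.5 CPM in VT107, against 41.5, 42.6 and 38.2 CPM in DMSO and changed by -0.62 ± 0.13 SE, adjusted p = 0.0451. YAP1 averaged 56.5 ± 13.2 CPM in VT107 and 51.4 ± 15.5 CPM in DMSO (0.16, adjusted p = 0.532). WWTR1, which encodes TAZ, had 27.6 ± 9.77 CPM in VT107 and 18.7 ± 4.71 CPM in DMSO and a log2 fold change of 0.54, adjusted p = 0.102, and TEAD2 0.47, adjusted p = 0.14. VGLL3, a cofactor that binds TEADs in place of YAP, had -0.40, adjusted p = 0.0882. Levels of different genes are not compared here, since CPM is not corrected for length.

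Of 29 tested Hippo kinases and scaffolds, AMOTL2, WWC1 and WWC2 fell and none rose (10.3%, list median -0.20), and 12 of the 29 had an unadjusted p under 0.05. AMOTL2 encodes an angiomotin that holds YAP at junctions. It was at 122, 91.4 and 66.1 CPM in VT107, against 209.7, 180.0 and 184 CPM in DMSO, with no overlap, and fell 2.11-fold (log2 fold change -1.08 ± 0.14 SE, adjusted p = 0.00834). Without number 3 AMOTL2 did not pass (adjusted p = 0.0534). WWC1, or KIBRA, an activator of the LATS kinases, was at 42.2, 37.7 and 40.5 CPM in VT107, against 63.4, 55.2 and 74.9 CPM in DMSO and changed by -0.68, adjusted p = 0.0238, and its relative WWC2 by -0.71, adjusted p = 0.0368. The kinases LATS1 (-0.10, adjusted p = 0.808), STK3 (-0.18, adjusted p = 0.425) and STK4 (-0.33, adjusted p = 0.241) and the adhesion protein KIRREL (-0.31, adjusted p = 0.532) were not called. The LIM protein WTIP, which binds LATS kinases, had -0.43, adjusted p = 0.135, and NF2 -0.61, adjusted p = 0.24. Calls of WWC1, WWC2, TEAD1 and TEAD4 were lost without VT107 replicate 1, VT107 replicate 3 or DMSO replicate 1, and those of WWC2 and TEAD4 also without DMSO replicate 3 (adjusted p up to 0.205, for TEAD1).

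Several of the largest falls were in genes outside the target list. STXBP6, which encodes the secretory SNARE regulator amisyn, was at 23.6, 25.3 and 5.18 CPM in VT107, against 72, 67.2 and 27.2 CPM in DMSO. All VT107 libraries were below all DMSO libraries, and number 3 was low in both groups (log2 fold change -1.74 ± 0.17 SE, adjusted p = 0.00385). DCDC2, a microtubule-binding protein of primary cilia, was at 18.1, 14.8 and 9.15 CPM in VT107, against 44.8, 40.7 and 29.5 CPM in DMSO, again without overlap (-1.47 ± 0.13 SE, adjusted p = 0.00186). The phospholipase PLCB4, which acts below G protein-coupled receptors, changed by -1.40, adjusted p = 0.00664 and the noncoding RNA SFTA1P by -1.50, adjusted p = 0.0391. ZNF788 (-1.28, adjusted p = 0.0167) and AC022415.1 (-1.25, adjusted p = 0.0175) overlap on one strand and cannot be told apart. ITGB2, the beta-2 integrin subunit known from leukocytes, was at 119.8, 143 and 9.3 CPM in VT107, against 258, 263 and 31.1 CPM in DMSO. It fell at every number, and both number 3 libraries were far below the other libraries of their group, so that DMSO replicate 3 lay below VT107 replicates 1 and 2 (log2 fold change -1.19 ± 0.15 SE, adjusted p = 0.00834). The pan-leukocyte marker PTPRC had 0 counts in 5 libraries and 3 counts in DMSO replicate 3.

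**Figure D3:**
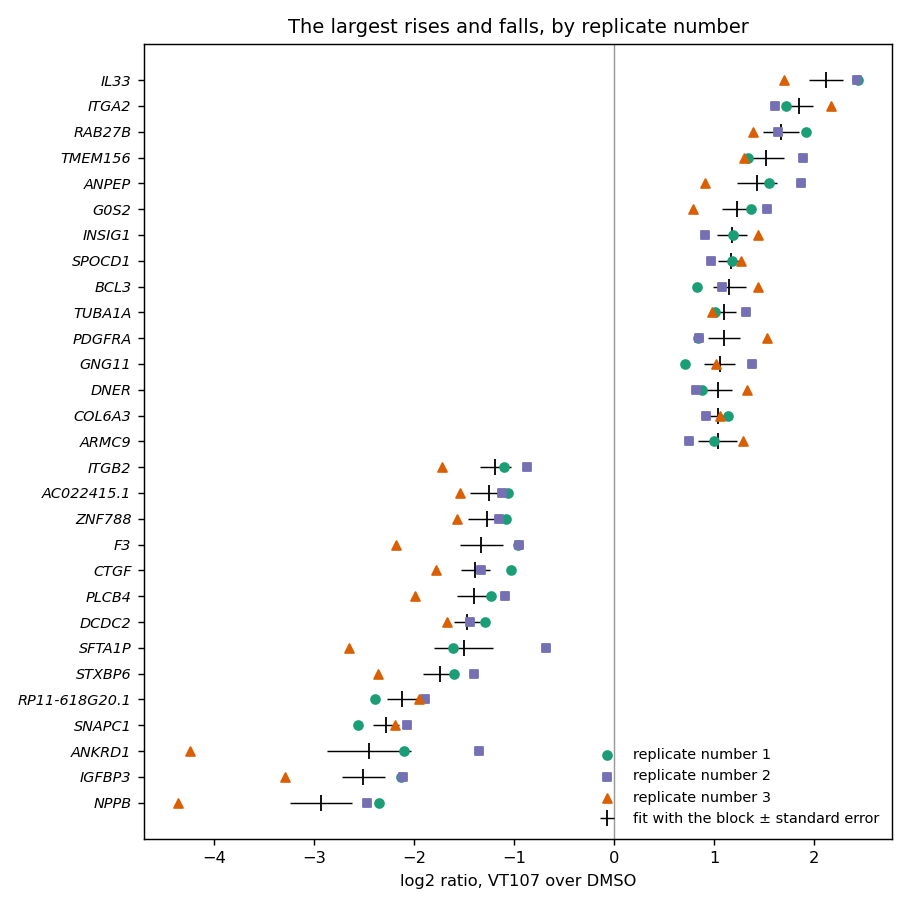
Log2 ratio of VT107 over DMSO at replicate numbers 1, 2 and 3 (circles, squares, triangles) for the 15 largest rises and the 14 largest falls among called genes of mean log2 CPM of at least 3, with the fitted value and its standard error in black. Every point lies on the side of its gene's fit, as the rule of choice required. Number 3 is farthest from 0 for NPPB, IGFBP3, ANKRD1 and F3.

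Among the higher genes, several encode cell surface receptors for matrix. ITGA2, the alpha-2 subunit of the collagen receptor (ENSG00000164171, chromosome 5 from 52285156 to 52390609, plus strand), was at 62.6, 43.4 and 128 CPM in VT107, against 18.9, 14.1 and 28.4 CPM in DMSO. The groups did not overlap. The log2 fold change was 1.85 ± 0.13 SE, adjusted p = 0.000618, a 3.61-fold rise, and it was 1.69 (adjusted p = 0.00452) without number 3. Of 13 tested integrin subunits, ITGA2, ITGA5 and ITGA11 rose and ITGB2 fell (30.8%, against 1.67% of all genes). ITGA5, of the fibronectin receptor, was at 50.5, 48.2 and 227 CPM in VT107, against 37, 33.9 and 103 CPM in DMSO, where each VT107 library was above its DMSO library but number 3 was high in both groups (0.71 ± 0.14 SE, adjusted p = 0.0445). ITGA11, another collagen receptor subunit, was low at 4.36, 4 and 13.4 CPM in VT107 and 1.68, 0.86 and 2.79 CPM in DMSO and had a log2 fold change of 1.96, adjusted p = 0.0167. ITGB1, the partner of all 3 of these alpha subunits, averaged 579 ± 25.5 CPM in VT107 and 503 ± 10.8 CPM in DMSO and was not called (0.20, adjusted p = 0.404), nor was ITGA1 (0.55, adjusted p = 0.137) or ITGAV (0.40, adjusted p = 0.175).

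Of 17 tested collagens 1 rose and 1 fell (11.8%, against 1.67% of all genes). COL6A3, a chain of collagen VI, was at 217, 207 and 585 CPM in VT107, against 98.3, 110.2 and 281 CPM in DMSO, so that DMSO replicate 3 exceeded VT107 replicates 1 and 2 while each number showed about the same ratio (1.14, 0.91 and 1.06 on the log2 scale). The log2 fold change was 1.04 ± 0.11 SE, adjusted p = 0.00423, and 1.04 (adjusted p = 0.0323) without number 3. COL8A1, a short-chain collagen, fell, with 11.6, 9.83 and 16.7 CPM in VT107, against 20.3, 21.7 and 32.1 CPM in DMSO (-0.96, adjusted p = 0.0167). The other chains of collagen VI, COL6A1 (0.48, adjusted p = 0.0975) and COL6A2 (0.41, adjusted p = 0.222), and the remaining 13 of 17 tested collagens did not pass in edgeR. Collagens as a list had a median of 0.26, which was 0.12 without number 3 and 0.49 without VT107 replicate 2, where 8 rose and 1 fell.

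Of 19 tested matrix proteases and inhibitors 4 rose and 1 fell (26.3%, against 1.67% of all genes). Without the number 3 libraries the fit with the block called 0 of them. MMP1, interstitial collagenase, was at 1076, 1121 and 1897 CPM in VT107, against 711, 743 and 900.2 CPM in DMSO (0.76, adjusted p = 0.0391). MMP3, stromelysin 1, was at 14.6, 16.1 and 16.1 CPM in VT107, against 7.74, 8.74 and 9.57 CPM in DMSO, with the groups apart (0.85, adjusted p = 0.0356). MMP14, a membrane-bound protease that activates other proteases, changed by 0.61, adjusted p = 0.0368 and the inhibitor TIMP1 by 0.60, adjusted p = 0.0489. TIMP3, an inhibitor held in the matrix, fell, with 334, 307 and 310.3 CPM in VT107, against 508, 484 and 429 CPM in DMSO and no overlap (-0.58, adjusted p = 0.0391). The disintegrin proteases ADAM19 (0.61, adjusted p = 0.0552) and ADAMTS5 (-0.85, adjusted p = 0.0849) did not pass. PLAU, urokinase, a protease of fibrinolysis, was at 40.1, 26.2 and 101 CPM in VT107, against 15.8, 17.8 and 45.4 CPM in DMSO (1.03, adjusted p = 0.0167) and the protease inhibitor TFPI2 changed by 0.54, adjusted p = 0.0356. Neither passed without number 3 (adjusted p = 0.144 for PLAU and adjusted p = 0.179 for TFPI2). The fibrinolysis genes PLAUR (-0.23, adjusted p = 0.385) and PLAT (-0.27, adjusted p = 0.307) were not called. TIMP1 and TIMP3 lie inside genes of the opposite strand, SYN1 and SYN3.

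Secreted factors and cytokines included the gene with the largest rise among the more abundant ones. IL33 encodes an alarmin of the IL-1 family stored in the nucleus (ENSG00000137033, chromosome 9 from 6215805 to 6257983, plus strand). It was at 22.8, 25.3 and 211 CPM in VT107, against 4.07, 4.58 and 64.9 CPM in DMSO. Number 3 was many times higher than numbers 1 and 2 in both groups, so the groups overlapped, but at each number VT107 was above DMSO, by 2.44, 2.42 and 1.70 on the log2 scale. The log2 fold change was 2.12 ± 0.17 SE, adjusted p = 0.00103, and 2.49 (adjusted p = 0.00452) without number 3. IL13RA2, a decoy receptor for IL-13, was at 8.57, 16.1 and 3.45 CPM in VT107 and 4.07, 2.51 and 1.11 CPM in DMSO (1.81, adjusted p = 0.0305). BCL3, a nuclear partner of NF-kB from the list of JAK-STAT3 genes, was at 11.1, 16.2 and 40.7 CPM in VT107, against 6.22, 7.59 and 15 CPM in DMSO (1.15, adjusted p = 0.0167). Without number 3 neither IL13RA2 nor BCL3 passed (adjusted p = 0.152 for each). Of the other 18 tested NF-kB and cytokine genes edgeR called none, while over the list of 20 DESeq2 with the block called 3 higher and voomWithQualityWeights 4. In edgeR the list had IL1B at 0.48, adjusted p = 0.0552 and IL8 at 1.18, adjusted p = 0.0786. The core genes NFKB1 (-0.15, adjusted p = 0.565) and NFKBIA (0.08, adjusted p = 0.719) were not called. Of 16 interferon response genes edgeR called 0, with 3 at an unadjusted p under 0.05, and DESeq2 and voomWithQualityWeights with the block also called 0. In the number 3 libraries the median log2 difference from numbers 1 and 2 was 0.87 over the NF-kB list and 0.80 over the interferon list.

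Of 24 tested TGF-beta and BMP genes, INHBA, GDF15, ID1 and ID2 rose, and TGFB2 and FSTL1 fell (25%, against 1.67% of all genes). GDF15, a secreted stress cytokine, was at 299.9, 277 and 379.9 CPM in VT107, against 161, 172 and 184 CPM in DMSO, with no overlap (0.88 ± 0.11 SE, adjusted p = 0.00854). ID1, an inhibitor of helix-loop-helix factors and a BMP target, was at 139, 142 and 229 CPM in VT107, against 89.9, 95 and 122 CPM in DMSO, again with no overlap (0.71 ± 0.11 SE, adjusted p = 0.0202), and ID2 changed by 0.85, adjusted p = 0.027. INHBA, which encodes the activin A subunit, was at 26.6, 28.6 and 122 CPM in VT107, against 19.4, 16.3 and 75.5 CPM in DMSO, with overlap through number 3 (0.65, adjusted p = 0.0263). FSTL1, a secreted glycoprotein that binds BMPs, was at 286, 264 and 356 CPM in VT107, against 432, 397 and 505 CPM in DMSO, with no overlap (-0.56, adjusted p = 0.0391). The inhibitor SMAD7 (1.10, adjusted p = 0.156), the coreceptor TGFBR3 (-0.65, adjusted p = 0.0665) and ID3 (0.26, adjusted p = 0.293) did not pass. Without number 3 the list median was 0.04 and none of the 24 was called, and with all libraries it was 0.24.

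Genes known as outputs of and feedback on ERK signalling rose in 3 of 16 tested cases (18.8%, against 1.67% of all genes). Without the number 3 libraries the fit with the block called 0 of them. DUSP6, a phosphatase that inactivates ERK, was at 71.7, 80.8 and 155 CPM in VT107, against 48.3, 49.4 and 76 CPM in DMSO (0.77 ± 0.12 SE, adjusted p = 0.0173), and DMSO replicate 3 lay between VT107 replicates 1 and 2. SPRY2, a brake on growth factor receptors, was at 23.2, 19 and 37.7 CPM in VT107, against 12.1, 13.8 and 20.5 CPM in DMSO (0.76, adjusted p = 0.0368). PHLDA1 was at 277, 283 and 342 CPM in VT107, against 154, 168 and 199 CPM in DMSO, with the groups apart (0.79, adjusted p = 0.00875). The list was not uniform: DUSP5 had -0.64, adjusted p = 0.0762, FOSL1 -0.32, adjusted p = 0.213 and ETV4 -0.25, adjusted p = 0.5, and the list median was 0.02. PDGFRA, a platelet-derived growth factor receptor, rose, with 24.8, 26.8 and 86.6 CPM in VT107, against 13.8, 14.9 and 30 CPM in DMSO (1.10 ± 0.16 SE, adjusted p = 0.015), and the annotated FIP1L1 overlaps it on the same strand. Without number 3 PDGFRA did not pass (adjusted p = 0.101). Of the 16 other tested receptors and ERBB ligands edgeR called none, while over the list of 17 DESeq2 and voomWithQualityWeights with the block each called 1 higher and 1 lower. In edgeR the list had FGF2 at -0.61, adjusted p = 0.0604, NRG1 at -0.59, adjusted p = 0.109 and EGFR at -0.38, adjusted p = 0.136. Of 10 AP-1 and immediate early genes edgeR called 0 (3 at an unadjusted p under 0.05), and DESeq2 and voomWithQualityWeights with the block 1 each. JUND had 0.64, adjusted p = 0.0619 and MYC -0.62, adjusted p = 0.131. NF1 itself, a brake on RAS, was at 60.9, 56.2 and 27.1 CPM in VT107, against 67.6, 62.1 and 35 CPM in DMSO (-0.22, adjusted p = 0.323). Of 14 RAS genes edgeR called 0, with 3 at an unadjusted p under 0.05, DESeq2 with the block 0 and voomWithQualityWeights with the block 1.

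Other receptors rose one at a time. The WNT receptor FZD8 was at 7.86, 8.19 and 8.33 CPM in VT107, against 2.71, 2.94 and 2.6 CPM in DMSO, low but apart in all libraries (1.56 ± 0.23 SE, adjusted p = 0.0167), while the WNT inhibitor DKK1 had 0.45, adjusted p = 0.0732. NRP1, a coreceptor for semaphorins and VEGF, was at 22.8, 21.5 and 31 CPM in VT107, against 13.4, 11.3 and 14.4 CPM in DMSO, with no overlap (0.93, adjusted p = 0.0173). DNER, a ligand of Notch, was at 20.2, 21.4 and 148 CPM in VT107, against 10.9, 12.1 and 59.1 CPM in DMSO (1.04, adjusted p = 0.00803), and the G protein subunit GNG11 at 15.2, 33.5 and 35.2 CPM in VT107, against 9.25, 12.8 and 17.4 CPM in DMSO (1.05, adjusted p = 0.0168). ANPEP, aminopeptidase N of the cell surface, was at 19.2, 21.1 and 30.1 CPM in VT107, against 6.46, 5.66 and 16 CPM in DMSO, with no overlap (1.43 ± 0.20 SE, adjusted p = 0.0129). TMEM156, a little-studied membrane protein, was at 13.8, 15.3 and 27.2 CPM in VT107, against 5.35, 4.01 and 11 CPM in DMSO (1.51, adjusted p = 0.00664). RAB27B, a GTPase of secretory vesicles (ENSG00000041353, chromosome 18 from 52495708 to 52562747, plus strand), was at 16.4, 15.3 and 22.9 CPM in VT107, against 4.23, 4.8 and 8.64 CPM in DMSO. Its groups were apart, and it passed also without number 3 (log2 fold change 1.66 ± 0.18 SE, adjusted p = 0.00428, and 1.83 with adjusted p = 0.031 without number 3). SPOCD1 changed by 1.16, adjusted p = 0.00428 and ARMC9, a ciliary protein, by 1.04, adjusted p = 0.0359. The fit without number 3 also called ANPEP (adjusted p = 0.0255). It did not call FZD8, NRP1, DNER, GNG11, TMEM156, SPOCD1 or ARMC9 (adjusted p from 0.0604 for TMEM156 to 0.231 for ARMC9).

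Among lipid genes that respond to SREBP, the factor that drives sterol and fatty acid synthesis, single members rose. INSIG1, which retains SREBP in the endoplasmic reticulum and is itself a target of SREBP (ENSG00000186480, chromosome 7 from 155089486 to 155101945, plus strand), was at 28.4, 27.4 and 22.7 CPM in VT107, against 12.4, 14.5 and 8.27 CPM in DMSO. All VT107 libraries were above all DMSO libraries, and number 3 was the lowest in both groups. The log2 fold change was 1.18 ± 0.15 SE, adjusted p = 0.00834, and 1.07 (adjusted p = 0.0556) without number 3. It was the 1 call among 27 tested sterol genes (3.7%, against 1.67% of all genes). Of the 27, 21 were above 0 and 10 had an unadjusted p under 0.05, and the list median was 0.25. The synthesis enzyme HMGCS1 averaged 148 ± 53.2 CPM in VT107 and 119.7 ± 38.2 CPM in DMSO (0.29, adjusted p = 0.184). Over the alternatives tried, the median of this list stayed between 0.21 and 0.27.

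Of 18 fatty acid genes, SCD and FADS2 rose (11.1%, against 1.67% of all genes). SCD, which makes monounsaturated fatty acids, was at 198, 198 and 308 CPM in VT107, against 111, 123 and 155 CPM in DMSO, with no overlap (0.84 ± 0.11 SE, adjusted p = 0.00834), and the desaturase FADS2 at 40.1, 36.7 and 72.5 CPM in VT107, against 26.2, 27.4 and 45.1 CPM in DMSO (0.57, adjusted p = 0.0368). Neither SCD nor FADS2 passed without number 3 (adjusted p = 0.0731 for SCD and adjusted p = 0.197 for FADS2). FADS2 is overlapped by its neighbour FADS1 on the other strand, which had 0.14, adjusted p = 0.538. FASN averaged 217 ± 8.02 CPM in VT107 and 197 ± 4.68 CPM in DMSO (0.14, adjusted p = 0.512). G0S2, an inhibitor of the lipase that breaks down stored triglyceride (ENSG00000123689, chromosome 1 from 209848765 to 209849733, plus strand), was at 306, 369 and 266 CPM in VT107, against 118, 128 and 155 CPM in DMSO, with no overlap, and rose 2.34-fold (log2 fold change 1.23 ± 0.15 SE, adjusted p = 0.00664). RP1-28O10.1 overlaps it on the opposite strand. The sterol regulatory element, searched as TCACNCCAC on both strands, is in the promoter window of 1 of 87 matched genes that rose (1.15%), 116 of 9941 tested genes (1.17%) and 313 of all 27305 promoters (1.15%). It is also in 2 of 73 matched genes that fell (2.74%) and in 1 of 21 matched genes of the sterol list (4.76%). The windows of INSIG1, SCD and FADS2 hold no match.

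Amino acid transporters and stress genes moved in both directions. SLC7A5, the large neutral amino acid transporter, was at 223, 196 and 169 CPM in VT107, against 318, 332 and 357 CPM in DMSO, with no overlap, and fell by 0.79 on the log2 scale (standard error 0.13, adjusted p = 0.0238). Its partner chain SLC3A2 had -0.55, adjusted p = 0.0837, and the cationic transporter SLC7A1 fell (-0.50, adjusted p = 0.0416). SLC7A8, a second neutral amino acid transporter, rose, though its level was low: 3.07, 3.46 and 18.7 CPM in VT107, against 0.718, 0.573 and 3.53 CPM in DMSO (2.36 ± 0.27 SE, adjusted p = 0.00646). HMOX1, heme oxygenase, was at 61.3, 60.1 and 192 CPM in VT107, against 32.6, 27.7 and 101 CPM in DMSO and was the 1 call among 17 oxidative stress genes (0.98 ± 0.10 SE, adjusted p = 0.00423, and 1.03 with adjusted p = 0.0334 without number 3). Other NRF2 targets were not called, with NQO1 at 0.34, adjusted p = 0.137 and TXNRD1 at -0.35, adjusted p = 0.195. PIK3IP1, an inhibitor of PI3K, was the 1 call in edgeR (2 in DESeq2 with the block) of 17 genes known to be raised when PI3K is off, with 2.29, 2.73 and 9.75 CPM in VT107 and 0.798, 1.07 and 1.3 CPM in DMSO (log2 ratios by number 1.35, 1.23 and 2.76, adjusted p = 0.0368). ADM, the peptide adrenomedullin, was the 1 call in edgeR of 26 hypoxia and glycolysis genes (1 higher and 2 lower in voomWithQualityWeights with the block), at 66.8, 84.3 and 41.1 CPM in VT107, against 120.5, 129.9 and 120.3 CPM in DMSO, with no overlap (log2 ratios by number -0.85, -0.62 and -1.55, adjusted p = 0.0237), while VEGFA had 0.66, adjusted p = 0.281. Of these calls only HMOX1 passed without number 3. SLC7A5, SLC7A1, SLC7A8, PIK3IP1 and ADM did not (adjusted p from 0.104 for ADM to 0.234 for PIK3IP1). Of 16 p53 response genes edgeR called 0 (4 at an unadjusted p under 0.05), as did DESeq2 and voomWithQualityWeights with the block, and of 14 BCL2 family genes edgeR called 0 (2 at an unadjusted p under 0.05), and DESeq2 and voomWithQualityWeights with the block 1 each.

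Log2 fold changes of ribosome and mitosis genes were mostly below 0, and most members did not pass. Of 62 tested ribosome biogenesis factors 61 lay below 0 on the log2 scale (median -0.35), and 5 passed (8.06%): BYSL, RRP1, RRP1B, NOC3L and NOLC1. BYSL, a factor in assembly of the small subunit, was at 15.6, 15.1 and 9.9 CPM in VT107, against 24.9, 23.1 and 22.4 CPM in DMSO, with no overlap (-0.81, adjusted p = 0.0369). RRP1 was at 29.9, 24.5 and 31.2 CPM in VT107, against 42.9, 39.9 and 49.4 CPM in DMSO and also did not overlap (-0.63, adjusted p = 0.0263). The abundant nucleolin gene NCL had 956 ± 244 CPM in VT107 and 1315 ± 64.2 CPM in DMSO and did not pass (-0.49, adjusted p = 0.156). Of the 62, 36 had an unadjusted p under 0.05, against 2280 of all 12891 genes. The median was -0.22 without number 3, where none passed, and -0.42 without VT107 replicate 2, where 31 did.

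Of 30 mitotic genes all lay below 0 on the log2 scale (median -0.42), and KIF23, CDC20 and MKI67 fell (10%). KIF23, a kinesin of cytokinesis, was at 30.9, 25 and 13.4 CPM in VT107, against 44.4, 47.1 and 26.6 CPM in DMSO (-0.80, adjusted p = 0.0238), and CDC20, an activator of the anaphase-promoting complex, at 153, 106 and 145 CPM in VT107, against 198, 183 and 265 CPM in DMSO (-0.67, adjusted p = 0.0321). The proliferation marker MKI67 was at 276, 263 and 175 CPM in VT107, against 409.8, 363 and 273 CPM in DMSO (-0.56, adjusted p = 0.038). TOP2A had -0.68, adjusted p = 0.0645 and AURKA -0.50, adjusted p = 0.0665 and did not pass. Another 35 DNA replication genes had a median of -0.27, of which edgeR called 0, with 18 at an unadjusted p under 0.05 (MCM10 -0.53, adjusted p = 0.0558), and DESeq2 and voomWithQualityWeights with the block 1 each. Without number 3 no member of either list passed and the medians were -0.30 for mitosis and -0.25 for replication. Of 18 cyclins and CDK genes edgeR called 0 (6 at an unadjusted p under 0.05), DESeq2 with the block 2 and voomWithQualityWeights with the block 1. The inhibitor CDKN1C had 0.89, adjusted p = 0.0531 and CDK6 -0.60, adjusted p = 0.0556. Since these are bulk cultures, fewer cells in a phase and less RNA per cell cannot be told apart.

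Cytoskeletal and identity genes differed by list. Of 14 tested tubulin and tubulin-related genes 2 rose and 1 fell (21.4%, against 1.67% of all genes). TUBA1A, an alpha-tubulin, was at 149, 181 and 421 CPM in VT107, against 73.8, 72.8 and 214 CPM in DMSO, and TUBB3, a beta-tubulin of neurons, at 90.9, 91.5 and 262 CPM in VT107, against 67.2, 63.8 and 185 CPM in DMSO, with changes of 1.10 ± 0.11 SE, adjusted p = 0.00423 and 0.49 ± 0.10 SE, adjusted p = 0.0451. Both have overlapping annotation: TUBA1C lies on the opposite strand of TUBA1A and had -0.17, adjusted p = 0.656, and RP11-566K11.2 shares the strand of TUBB3. The member of this list that fell was DCDC2, a microtubule-binding protein and not a tubulin. No other member was called. Of 19 smooth muscle type actin genes edgeR called 0 (4 at an unadjusted p under 0.05), as did DESeq2 and voomWithQualityWeights with the block, with ACTA2 at 0.33, adjusted p = 0.175 and TAGLN at -0.13, adjusted p = 0.6. Of 14 transition regulators and cadherins these tools also called 0 (2 at an unadjusted p under 0.05 in edgeR). The keratin KRT7 was the 1 call of 10 mesothelial genes, at 37.6, 37.4 and 146 CPM in VT107, against 60.6, 60.9 and 217 CPM in DMSO, where number 3 had several times the level of the others in both groups (-0.65 ± 0.10 SE, adjusted p = 0.0197). WT1 (-0.12, adjusted p = 0.622) and MSLN (-0.01, adjusted p = 0.988) were not called.

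**Figure D4:**
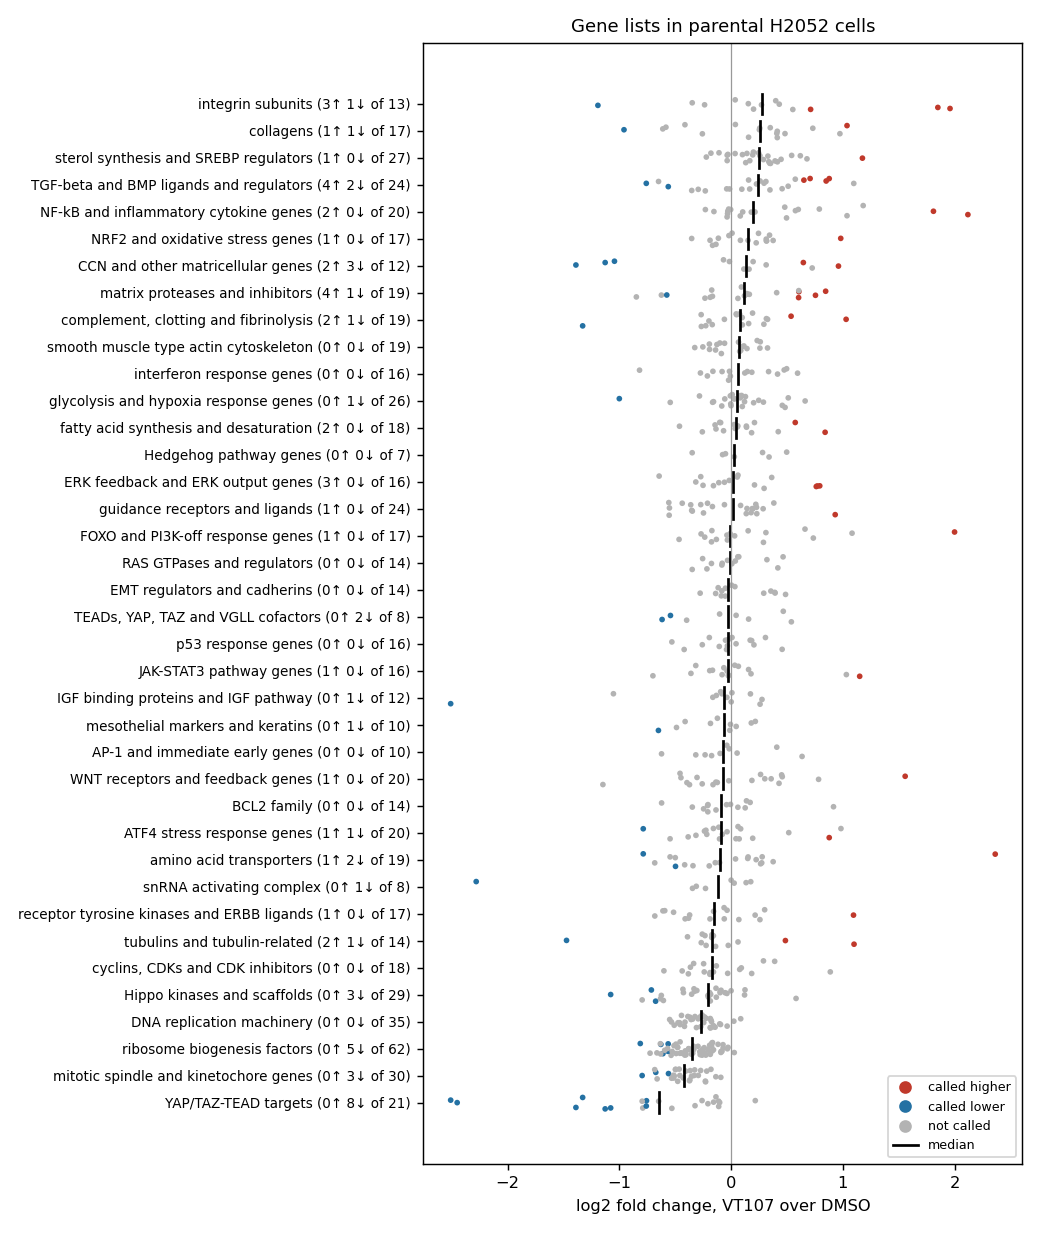
Log2 fold change (VT107 over DMSO) of each tested member of the gene lists, 1 row a list ordered by its median (black bar), with members called higher in red, called lower in blue and not called in grey. The numbers beside each name give calls up, calls down and members tested. The YAP/TAZ-TEAD targets have the lowest median, -0.65, and the ribosome biogenesis, DNA replication and mitosis lists lie mostly left of 0.

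Other called genes were chosen after their values were seen, to show members of no list. Of genes that fell, the transcription factor KLF5 had 24.7 ± 14.3 CPM in VT107 and 41.5 ± 17.3 CPM in DMSO (-0.84, adjusted p = 0.0286), MFAP5, a microfibril protein, 39 ± 19.8 CPM in VT107 and 67.7 ± 17.2 CPM in DMSO (-0.90, adjusted p = 0.0368), the muscle protein gene DMD -1.10, adjusted p = 0.0168 and SKP2, the F-box protein that targets CDKN1B, -0.73, adjusted p = 0.0173. Of genes that rose, the laminin chain LAMB3 had 59.5 ± 36.4 CPM in VT107 and 33.2 ± 21.9 CPM in DMSO (0.87, adjusted p = 0.00803), LAMA4 0.72, adjusted p = 0.0237, the transcription factor SOX4 0.93, adjusted p = 0.0212, the phosphatidate phosphatase LPIN1 0.59, adjusted p = 0.0238, the retinaldehyde dehydrogenase ALDH1A3 337 ± 255 CPM in VT107 and 208 ± 154 CPM in DMSO (0.69, adjusted p = 0.0202) and the prion protein gene PRNP 455 ± 258 CPM in VT107 and 248 ± 96.3 CPM in DMSO (0.80, adjusted p = 0.0202). Summed over all called genes, the mean CPM in VT107 was higher by 5200.3 CPM over the 109 genes that rose and fell by 4454 CPM over the 106 genes that fell.

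The size of the changes depended on the replicate number. Over the 106 genes that fell the median log2 ratio was -0.65, -0.71 and -0.94 at numbers 1, 2 and 3, and number 3 had the largest fall for 80 of them. Over the 109 that rose it was 0.77, 0.71 and 0.92, and number 3 had the largest rise for 61. The spread of the ratios over all genes was also widest there, with an SD of 0.345, 0.432 and 0.524. How often number 3 had the largest ratio over all genes was not counted, so the counts of 80 and 61 have no background. In DMSO alone, number 3 was already above both other libraries for 92 of the 109 genes that rose (44.7% of all genes) and below both for 69 of the 106 that fell (44.1%). Of the 215 called genes 86 differed at least 2-fold between number 3 and the other numbers, against 14.8% of all genes tested. What number 3 stands for is not given in the sources used here.

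NF1 mutant H2052 cells received the same dose for the same time. NF1 had 853, 618 and 361 counts in parental cells in VT107 and 847, 867 and 377 in DMSO, against 29, 89 and 55 counts in VT107 and 70, 77 and 73 in DMSO in the mutant, whose libraries held 3285363 to 5489092 counts. In a fit of all 12 libraries, the difference of the VT107 response, parental minus NF1 mutant, passed for 0 of 11432 genes (0.0%) with edgeR, 132 of which had an unadjusted p under 0.05, and the smallest adjusted p was 0.989. That fit called 0 genes for VT107 in parental and 7 in NF1 mutant cells. Of the 30 largest changes in parental cells 28 were tested there, and all 13 falls and 15 rises had the same sign in the mutant, 15 of the 28 with a smaller size. The libraries are different ones in the 2 genotypes, and the 28 were chosen in parental cells. The share of all 11432 genes with the same sign in both genotypes was not counted, so the 28 have no background beside them.

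For SNAPC1 the log2 fold change was -2.30 ± 0.27 (SE) in parental and -2.68 ± 0.28 in NF1 mutant cells. For STXBP6 it was -1.80 ± 0.22 (SE) in parental and -2.01 ± 0.23 in NF1 mutant cells, for CTGF -1.40 ± 0.34 (SE) in parental and -2.04 ± 0.36 in NF1 mutant cells and for ANKRD1 -2.54 ± 0.52 (SE) in parental and -2.41 ± 0.51 in NF1 mutant cells. Among the rises, ITGA2 had 1.83 ± 0.26 (SE) in parental and 2.26 ± 0.27 in NF1 mutant cells, and IL33 2.18 ± 0.35 (SE) in parental and 3.21 ± 0.41 in NF1 mutant cells. SPOCD1 had 1.14 ± 0.24 (SE) in parental and 2.11 ± 0.25 in NF1 mutant cells (adjusted p of the difference = 0.989 in edgeR, and the smallest p of the 28), and ARMC9 1.01 ± 0.28 (SE) in parental and 0.12 ± 0.34 in NF1 mutant cells. In the mutant ARMC9 was at 2.29, 5.52 and 5.01 CPM in VT107, against 3.78, 3.75 and 4.42 CPM in DMSO. Its VT107 replicates 2 and 3 lay above all DMSO libraries and replicate 1 below them. NPPB and RP11-618G20.1 did not reach 0.5 CPM in every mutant library and were not tested there. In the mutant, VT107 replicate 1 stood apart, with G0S2 at 20 CPM against 264 and 283 CPM in replicates 2 and 3, and without it the test of the difference still called 0 genes, with 468 at an unadjusted p under 0.05 and a smallest adjusted p of 0.465. The 10 genes with the smallest p for the difference were C3, HIF1A, SCUBE2, TIGD1, SLC37A2, KIAA1958, MAGI1, ADAMTS5, DHCR7 and PAM16. C3, the complement component, had 0.06 ± 0.23 (SE) in parental and 2.12 ± 0.42 in NF1 mutant cells, and HIF1A, the hypoxia-inducible factor, 0.35 ± 0.19 (SE) in parental and 1.51 ± 0.20 in NF1 mutant cells. The standard errors of those 10 differences were 0.27 to 0.48 on the log2 scale.

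**Figure D5:**
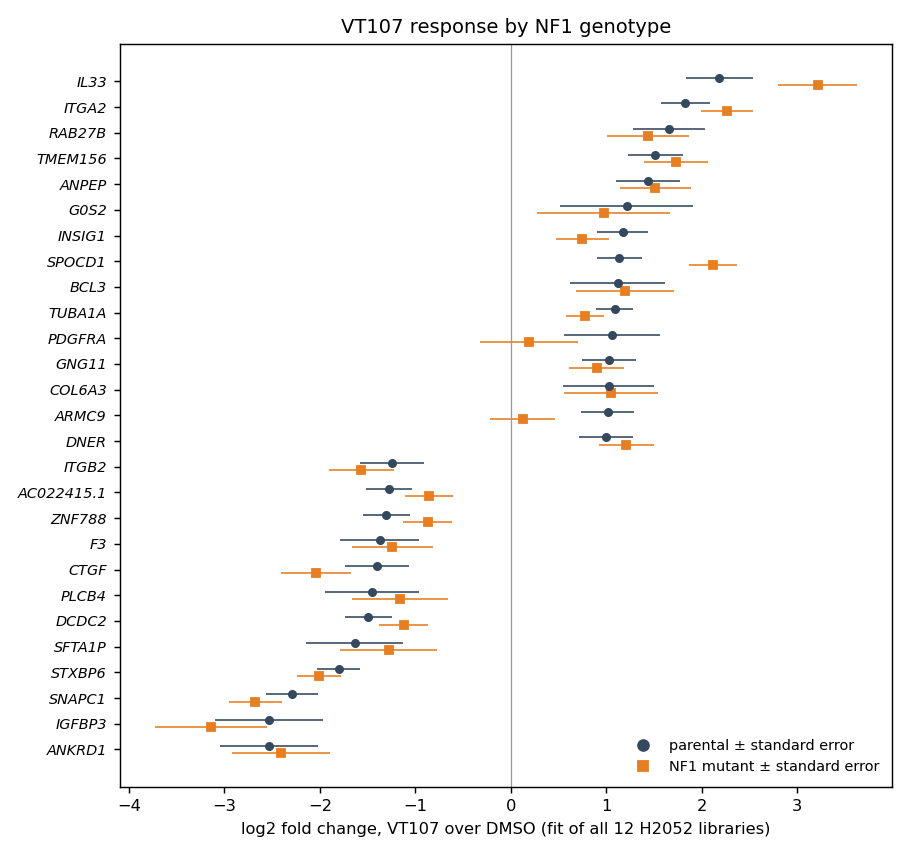
Log2 fold change of VT107 over DMSO with its standard error in parental (circles) and NF1 mutant (squares) H2052 cells, from 1 fit of all 12 libraries, for 27 of the largest parental changes tested there. All 27 have the same sign in both, from IL33 at 2.18 and 3.21 to ANKRD1 at -2.54 and -2.41.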

How the data were processed

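Total RNA was extracted with Trizol, and polyA RNA, per the labels, was sequenced single-end on a NextSeq500. The authors demultiplexed with bcl2fastq 2.20.0.422 and used build hg19. Which aligner, counter, annotation, strand setting and kit were used is not given in the sources used here. In the deposited table are raw counts per gene (31017 rows, 63 repeating an ID, summed to 30954 IDs). A table of siRNA-transfected cells, whose 16 sample columns matched no described sample, and a table of another line were not used. Both also hold columns of the authors' own comparisons (fold changes and p-values). Of 166 abundant genes lying inside a longer gene of the other strand, the outer gene had fewer counts in 104, so overlapping genes are named as such.

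Genes with at least 0.5 CPM in all 6 libraries were tested with edgeR 4.0.16 (R 4.3.3, TMM, quasi-likelihood) on treatment plus replicate number, with Benjamini-Hochberg adjustment over all genes and a threshold of 0.05. Standard errors came from the fold change and its F statistic, and ratios per replicate number used a prior count of 2. Deviations from the group means correlated at 0.613, 0.488 and 0.795 between libraries of equal number, at 0.517 and 0.607 between numbers 1 and 2, and at -0.716 to -0.590 between number 3 and the others. The study's methods state no block, so the fit without it stands beside the total over all genes. Alternatives used limma 3.58.1 and DESeq2 1.42.0, other filters and factors, and libraries left out. The script was tested on simulated data.

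The members, the 41 lists (831 of 834 symbols found) and the tests were chosen with earlier results of these data known. Named were the 15 largest falls and 15 largest rises among called genes averaging 3 or more in log2 CPM, with 1 direction at all numbers, genes the study names, all called list members, up to 10 uncalled members a list (the most abundant and those with the smallest p), all members of marker lists, and the 10 smallest p of the genotype difference. Other names were chosen after their values were seen. Some genes that the rule names are not reported here.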

Additional observations from a re-analysis of the deposited data

Results flagged for a closer look

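DHCR7, the last enzyme of cholesterol synthesis, and TIGD1, a transposase-derived gene, were singled out because every VT107 library lay above every DMSO library in parental cells and below every one in NF1 mutant cells. The share of all genes that met this rule is not given here, so these genes have no background beside them. Groups without overlap in parental cells alone, in either direction, made up 10.5% of all genes tested. Both genes are also among the 10 with the smallest p for the difference between genotypes. DHCR7 was at 54.0, 50.8 and 60.8 CPM in VT107, against 38.5, 48.3 and 45.1 CPM in DMSO in parental cells, and at 53.1, 78.5 and 75.5 CPM in VT107, against 113.9, 112.5 and 99.2 CPM in DMSO in the mutant. The log2 fold changes were 0.33 and -0.65, a difference of 0.98 (standard error 0.29, adjusted p = 0.989 in edgeR). TIGD1 was at 5.36, 5.24 and 5.24 CPM in VT107, against 3.79, 3.92 and 3.70 CPM in DMSO in parental cells, and at 2.86, 2.25 and 2.06 CPM in VT107, against 4.69, 3.53 and 4.17 CPM in DMSO in the mutant. Its log2 fold changes were 0.47 and -0.80, a difference of 1.27 (standard error 0.35, adjusted p = 0.989). The test of neither difference passed.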

How the results depend on the processing

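The count of calls moved with the replicate block, the filter, the tool and the libraries in the fit. Against 215 of 12891 with the replicate block, edgeR called 0 with no replicate block, DESeq2 32 and voomWithQualityWeights 18 without it, and a fit of all 12 H2052 libraries with the block in parental cells 0 of 11432. With the block, DESeq2 called 305, limma-voom 232, RLE factors 219, a filter of 10 counts 202, voomWithQualityWeights 390, number 3 alone set apart 374, and no filter on low counts 802 of 20046 genes. Without the number 3 libraries 27 were called with the block and 44 without it. Leaving out 1 library gave 61 to 1135 calls. The highest count was without VT107 replicate 2 and the lowest without DMSO replicate 1. None of the 215 changed sign under any alternative that tested it, but the alternatives reuse the libraries in which the 215 were chosen. Of 80 named genes that were called, 18 passed in voomWithQualityWeights without the block, 20 passed without number 3, and 35 passed in all 6 fits that left out 1 library. Those 6 fits are not separate checks, since the partner of the library left out adds almost nothing. The cause of these differences was not tested. For the difference between genotypes every alternative called 0 genes, with 65 to 808 at an unadjusted p under 0.05. With 3 libraries a group, the smallest change called was 0.48 on the log2 scale.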
